A study of Mus musculus with 12 samples.

Results

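Coagulation factors and inhibitors are plasma proteins that the liver secretes, and 10 of their genes were followed here in mouse liver: F2, F5, F7, F9, F10, F11, F12, F13b, Proc and Serpinc1. They were found by symbol in both deposited count tables, which were joined by gene identifier, and all 10 of the 10 names were found among 25164 genes. The data are liver RNA-seq counts from 12 libraries, 4 per group out of 10 mice assigned to each group. Mice of the Control group were kept on a normal diet for 14 weeks. High-fat diet (HFD) mice had high-fat feed for 14 weeks and no drug. HFD + fenofibrate mice had high-fat feed for the same 14 weeks, the first 10 without drug and the final 4 with fenofibrate given by gavage. Fenofibrate, used to lower blood lipids, is an agonist of the nuclear receptor PPARA. Strain, sex and dose, and whether the other groups were gavaged, are not stated in the labels.

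Blood clots when a chain of proteases, each made as an inactive precursor, activate one another on a membrane surface and end in thrombin, which turns fibrinogen into fibrin. Hepatocytes make most of these proteins. The proteases of the vitamin K-dependent family need a carboxylation step in the liver before they can bind membranes, and inhibitors such as antithrombin and activated protein C limit the chain. Among the genes described, F2 encodes prothrombin, F7, F9 and F10 encode the vitamin K-dependent proteases of the initiating and amplifying steps, and Proc encodes the anticoagulant protease protein C. F11 and F12 encode the proteases of the contact pathway. F5 encodes the cofactor of activated factor X, F13b the carrier subunit of the fibrin-crosslinking enzyme, and Serpinc1 antithrombin.

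The 250 bases before the RefSeq start (GRCm38.p6) are shown for the 3 genes that passed the test in some comparison, F9, F13b and F10, and for F7, which lies beside F10. They are read 5′ to 3′ on the strand of the gene, which is plus for all 4. The windows are chrX:59999214-59999463 for F9, chr1:139501457-139501706 for F13b, chr8:13037058-13037307 for F10 and chr8:13025784-13026033 for F7. Capitals mark matches to the letters searched for.
F9: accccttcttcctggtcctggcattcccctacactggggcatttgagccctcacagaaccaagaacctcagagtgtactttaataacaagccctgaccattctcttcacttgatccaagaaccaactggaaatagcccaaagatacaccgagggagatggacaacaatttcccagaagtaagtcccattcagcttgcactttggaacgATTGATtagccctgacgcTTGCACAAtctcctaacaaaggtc
F13b: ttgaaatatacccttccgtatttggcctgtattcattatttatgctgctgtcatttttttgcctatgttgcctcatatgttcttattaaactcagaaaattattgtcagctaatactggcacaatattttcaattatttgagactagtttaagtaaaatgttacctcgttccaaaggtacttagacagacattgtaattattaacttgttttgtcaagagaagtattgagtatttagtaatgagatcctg
F10: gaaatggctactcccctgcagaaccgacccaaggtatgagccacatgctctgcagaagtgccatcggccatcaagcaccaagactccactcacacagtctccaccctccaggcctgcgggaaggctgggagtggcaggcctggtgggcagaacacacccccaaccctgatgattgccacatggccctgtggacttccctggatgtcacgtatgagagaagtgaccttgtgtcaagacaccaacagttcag
F7: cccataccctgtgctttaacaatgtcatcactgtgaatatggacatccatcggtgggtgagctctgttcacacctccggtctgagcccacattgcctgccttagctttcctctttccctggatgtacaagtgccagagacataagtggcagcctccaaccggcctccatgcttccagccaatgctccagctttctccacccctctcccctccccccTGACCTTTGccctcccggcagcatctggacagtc

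Both strands of 9 promoters of the 10 genes were searched for letters of 4 kinds that liver transcription factors are known to bind. The F9 window held the C/EBP letters TTGCNNAA from 24 to 17 bases before the start and the HNF6 letters ATTGAT from 42 to 37 bases before it. In F7 the letters CAAAGGTCA lay on the opposite strand from 34 to 26 bases before the start, and F10 and F13b held none of the 4. Of the windows not shown, those of F2 and F12 held the HNF6 letters and that of F11 the C/EBP letters. Of the 9 promoters, 3 held the HNF6 letters, 2 the C/EBP letters and 1 the letters CAAAGGTCA. For comparison, among 32851 promoters of the same length, 9.56% held the C/EBP letters, 6.72% the HNF6 letters and 0.43% the letters CAAAGGTCA. The HNF4 letters CAAAGTCCA were in 0.38% of them and in none of the 9. The windows also differed in base composition, from 30.8% G and C in F13b and 47.6% in F9 to 57.6% in F10, against a median of 52.4% over all promoters. Each match is a description of letters and was not tested for binding.

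All 10 transcripts were abundant, and each passed the filter on low counts; the lowest count of any of them in any library was 534, for F11. Levels of different genes are compared as CPM (counts scaled to a common library size, between libraries by edgeR's TMM method) per kilobase of merged exon, averaged over the 12 libraries. F2, prothrombin, led with 405 CPM per kb, followed by F12 with 272, Serpinc1 with 248, Proc with 210 and F10 with 150. F13b had 97.2 CPM per kb, F9 70.4, F5 66.5, F7 48.5 and F11 19.0. F12 and Serpinc1 differed by less than the SD of F12 in Control, 33.5 CPM per kb, but by more than its SDs in HFD, 9.39, and with fenofibrate, 17.1. F9 and F5 differed by less than the group SDs of F9, 4.00 to 8.24 CPM per kb. The order of F12, Serpinc1 and Proc also depended on the length used. With the principal transcript in place of merged exons, a choice made after the data were seen, F2 had 935 CPM per kb, Serpinc1 427, Proc 331 and F12 272, and the lower ranks kept their order. Exons of F5 and Serpinc1 overlap genes on the other strand (Gm16548 and Zbtb37), and no source used here gives the strand setting of the counting, so a part of those counts could belong to the neighbours.

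**Figure D1:**
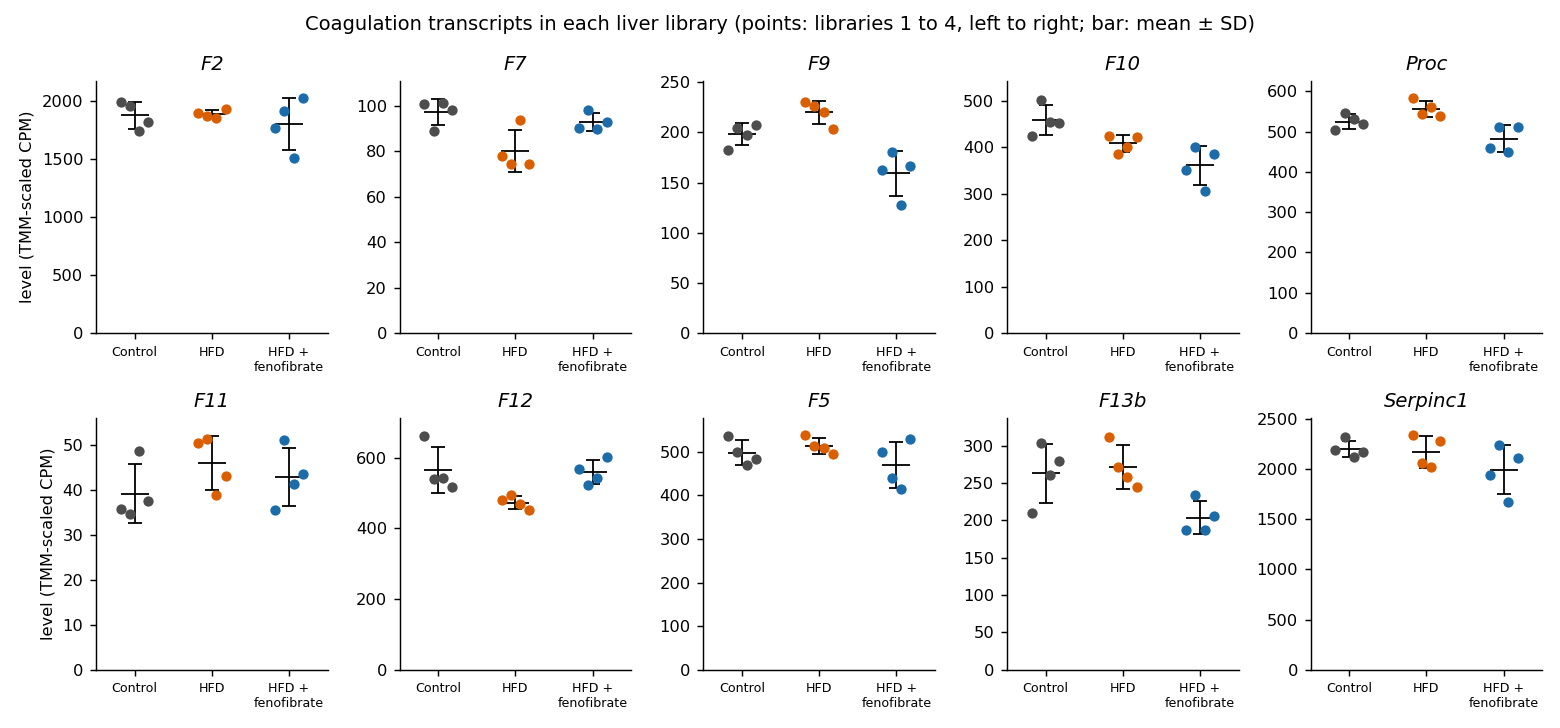
Level of each transcript (vertical axis, TMM-scaled CPM from 0) in Control, HFD and HFD + fenofibrate livers. Points are libraries 1 to 4 from left to right and bars are the mean ± SD of 4 libraries; F9 is at 203 to 230 CPM in HFD and 127 to 180.0 CPM with fenofibrate, and library 3 of the fenofibrate group is the lowest of its group for 7 of the 10 genes.

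Total counts ran from 15797016 to 18514481 per library, and the 10 genes took 0.614% to 0.732% of them. Of 12 hepatocyte markers, 11 were found, and their summed level without TMM scaling ranged from 137540 to 151329 CPM among Control libraries, from 128637 to 140702 among HFD libraries and from 118255 to 138388 among fenofibrate libraries, and no marker was at 0 in any group. Pancreatic acinar markers (12 of 12 found) reached 2114 CPM in library 1 of the fenofibrate group and 6.24 to 31.4 CPM in the other 11 libraries; 9 of the 12 were at 0 counts throughout Control. Striated muscle markers (5 of 6 found) reached 159 and 122 CPM in libraries 1 and 3 of that group, and 0.906 CPM or less in each other library. Results are therefore also given without those 2 libraries. Erythroid markers stood at 1185 CPM in its library 1 and between 202 and 484 CPM in the rest, and platelet markers to 2.36 to 7.42 CPM in all libraries. In whole liver, fewer hepatocytes and less RNA per hepatocyte cannot be told apart. The labels do not say how animals were housed or libraries batched. The p-values therefore weigh differences only against the spread of libraries within groups, pooled over all 12 libraries.

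With fenofibrate on the high-fat diet, 2 of the 10 transcripts, F9 and F13b, fell below their HFD levels, to 0.724 and 0.750 of them, and 0 rose. Every adjusted p here is from edgeR's quasi-likelihood test, fitted over 13477 genes in all 12 libraries with Benjamini-Hochberg adjustment; a gene is said to have risen or fallen when it is under 0.05. Of all genes tested, 6.59% fell and 6.89% rose. At an unadjusted p under 0.05, 3 of the 10 were lower and 2 higher, beside 2086 lower and 2125 higher of the 13477 genes tested. DESeq2 called 3 of the 10 as lower and 0 as higher; its share over all genes in this comparison is not given here, and the shares above are edgeR's. By sign alone 8 of the 10 were lower, with a median log2 fold change of -0.13 against 0.01 over all genes, but the sign of F2, F5, F11 and Serpinc1 turned when libraries were scaled by total counts only (4 of the 10 lower, median 0.04). That scaling moved the median of all genes by 0.17 on the log2 scale here and by 0.21 against Control. Without fenofibrate libraries 1 and 3, 5 of the 10 were lower, the median was -0.02, and neither of the calls stood. Over all genes, 55 rose and 69 fell in that fit, in place of 928 and 888, so most calls of any gene were lost in it.

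F9 encodes the protease that is missing in haemophilia B, and its gene lies at chrX:59999464-60030759. Its level in HFD libraries 1 to 4 was 230, 226, 220 and 203 CPM, and with fenofibrate it was 163, 180.0, 127 and 167 CPM. Every fenofibrate library lay under every HFD library. The means were 220 ± 11.9 and 159 ± 22.5 CPM (SD, n = 4 each), and F9 fell by 0.47 ± 0.11 on the log2 scale (SE, adjusted p = 0.012 in edgeR), to 0.724 of the HFD level with a 95% interval of 0.619 to 0.846. Leaving out any 1 library kept the call, and so did total counts only, with a log2 fold change of -0.31 (adjusted p = 0.0335). The log2 fold change was -0.34 with an edgeR adjusted p of 0.18 without fenofibrate libraries 1 and 3, which leaves 2 libraries in that group.

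F13b encodes the B subunit that carries and protects the fibrin-crosslinking A subunit in plasma, and its gene lies at chr1:139501702-139523752. HFD libraries 1 to 4 had 312, 271, 258 and 244 CPM of F13b, and the fenofibrate libraries had 187, 234, 188 and 205 CPM. The groups did not overlap, although fenofibrate library 2 came close to HFD library 4. From 271 ± 29.1 to 203 ± 22.1 CPM (SD, n = 4 each), F13b fell by 0.42 ± 0.12 on the log2 scale (edgeR adjusted p = 0.0368), to 0.750 of the HFD level (95% interval 0.626 to 0.898). This call was lost when any of HFD libraries 1, 2 and 4 or fenofibrate libraries 1, 3 and 4 was left out, with edgeR adjusted p from 0.0515 to 0.114. It was also lost with scaling by total counts only (log2 fold change -0.25, adjusted p = 0.0757) and without fenofibrate libraries 1 and 3 (-0.30, adjusted p = 0.356).

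Among the other vitamin K-dependent proteases, F2 was at 1891 ± 32.2 CPM in HFD and 1806 ± 221 CPM with fenofibrate, and its fold change of 0.955 had a 95% interval of 0.819 to 1.11. F10 was at 408 ± 18.5 and 361 ± 41.9 CPM (log2 fold change -0.18 ± 0.10, edgeR adjusted p = 0.244, and -0.016 under total counts only). F7, which with tissue factor starts the chain, went the other way in value: 77.8, 74.6, 94.1 and 74.6 CPM in HFD libraries 1 to 4 and 90.3, 98.4, 89.9 and 92.9 CPM with fenofibrate. HFD library 3 was inside the fenofibrate range and the other 3 HFD libraries were under it. The log2 fold change of F7 was 0.21 ± 0.09 with an edgeR adjusted p of 0.139, which became 0.30 with an adjusted p of 0.0455 when HFD library 3 was left out and 0.37 with an adjusted p of 0.0338 under total counts only.

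Proc, the anticoagulant member of the same family, stood at 584, 545, 560 and 539 CPM in HFD libraries 1 to 4 and at 460, 511, 449 and 512 CPM with fenofibrate. The groups did not overlap, yet the log2 fold change of -0.21 ± 0.09 had an edgeR adjusted p of 0.119 and missed the threshold; DESeq2 gave -0.21 with an adjusted p of 0.0335, total counts only gave -0.041 with 0.742, and the fit without fenofibrate libraries 1 and 3 gave -0.12 with 0.613. Antithrombin, encoded by Serpinc1, was at 2171 ± 158 CPM in HFD and 1991 ± 243 CPM with fenofibrate (log2 fold change -0.13 ± 0.11, edgeR adjusted p = 0.454). Its fold change had a 95% interval of 0.783 to 1.07.

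F12, which starts the contact pathway on negatively charged surfaces, had 480, 494, 468 and 451 CPM in HFD libraries 1 to 4. Its fenofibrate levels were 568, 524, 541 and 601 CPM, all above every HFD library. The log2 fold change was 0.24 ± 0.10 with an edgeR adjusted p of 0.11, and 0.41 with an adjusted p of 0.0262 under total counts only. In the authors' deposited table F12 had a log2 fold change of 0.23 with an adjusted p of 0.0246, beside F9 with -0.47 (0.00118) and F13b with -0.42 (0.00309), and these 3 were the ones of the 10 under 0.05. F11, the protease that follows F12, had the widest interval of the 10 transcripts, with a fold change of 0.934 (95% interval 0.766 to 1.14). F5 was at 514 ± 18.5 and 470 ± 52.9 CPM (edgeR adjusted p = 0.393).

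In all, 4 of the 10 transcripts had no overlap between the HFD and fenofibrate libraries (F9, F13b and Proc lower, F12 higher), beside 20.7% of all genes tested. Fold changes ran from 0.724 to 1.18, and the outermost 95% bounds were 0.619 and 1.37. Fenofibrate library 3 was the lowest of its group for 7 of the 10 genes, and library 2 was the highest for 6. Summed over the 10 genes, library 3 held 5346 CPM, library 1 6064, library 2 6586 and library 4 6678, against 6421 to 6930 CPM in HFD and 6476 to 6996 CPM in Control. A part of this order rests on the scaling. Without it the 10 genes took 0.679%, 0.651%, 0.620% and 0.732% of all counts in fenofibrate libraries 1 to 4 and 0.620% to 0.662% in HFD. Library 3 stayed the lowest of the fenofibrate group and library 4 the highest, while libraries 1 and 2 changed places. Fenofibrate libraries 1 and 4 then lay above every HFD library. Library 3 also had the largest TMM factor, 1.16, by which its counts are divided, and the part of that factor in these levels was not tested.

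**Figure D2:**
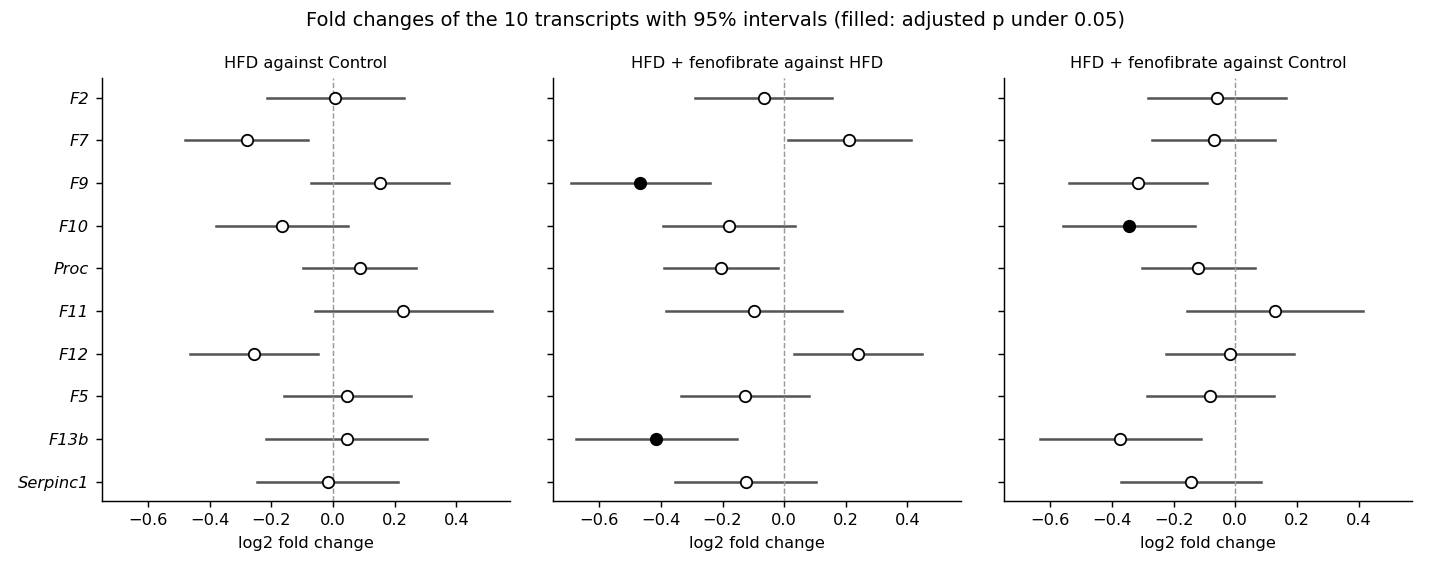
Log2 fold change (horizontal axis) of each transcript in the 3 comparisons, with lines for the 95% intervals and filled points for an edgeR adjusted p under 0.05. F9 and F13b are filled at -0.47 and -0.42 in fenofibrate against HFD, F10 is filled at -0.34 in fenofibrate against Control, and no point is filled in HFD against Control.

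The high-fat diet alone changed none of the 10 transcripts by edgeR's adjusted p, beside 6.13% of all genes that rose and 6.64% that fell. At an unadjusted p under 0.05, 2 of the 10 were lower, F7 and F12, and 0 were higher. Of the 13477 genes tested, 1918 were lower and 1709 higher at that threshold. DESeq2 called 1 of the 10, F7, as lower, and over all genes it called 1008 as lower and 998 as higher, against 895 and 826 in edgeR. The median log2 fold change was 0.03, against -0.02 over all genes. Fold changes ran from 0.824 to 1.17, with outermost 95% bounds of 0.717 and 1.43, so the libraries leave room for changes of that size.

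F7 was at 101.1, 89.2, 101.2 and 98.4 CPM in Control libraries 1 to 4, against the HFD levels above. Of the 4 HFD libraries, 3 lay under every Control library, and HFD library 3 lay among them. The log2 fold change was -0.28 ± 0.09 with an edgeR adjusted p of 0.0635; without HFD library 3 it was -0.36 with an adjusted p of 0.0234, and DESeq2 gave -0.27 with 0.0427. F12 was at 662, 539, 544 and 517 CPM in Control, all above every HFD library, which made it the 1 transcript of the 10 with no overlap, beside 17.6% of all genes. Its log2 fold change was -0.26 ± 0.10 (edgeR adjusted p = 0.102), and -0.16 without Control library 1 (adjusted p = 0.304).

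The transcripts that fell with the drug had not passed the test with the diet. F9 was at 183, 204, 198 and 207 CPM in Control and F13b at 210, 303, 261 and 279 CPM, and both overlapped HFD. Their diet log2 fold changes were 0.15 ± 0.11 and 0.04 ± 0.12 (edgeR adjusted p = 0.391 and 0.862). Among the rest, F2 (log2 fold change 0.01 ± 0.10), F5 (0.05 ± 0.10), Proc (0.09 ± 0.09) and Serpinc1 (-0.02 ± 0.11) were nearest to 0, and the sign of Serpinc1 turned with total counts only. F10 was at -0.17 ± 0.10 and F11 at 0.23 ± 0.13 (edgeR adjusted p = 0.313 and 0.302).

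Against Control, the drug-treated livers had 1 of the 10 transcripts lower by the test, F10, and 0 higher, beside 4.31% of all genes that fell and 4.86% that rose. This comparison shares its fenofibrate libraries with the one against HFD and its Control libraries with the diet comparison. The diet comparison and the one against HFD share the HFD libraries, so opposite moves of a gene in them are not independent results. At an unadjusted p under 0.05, 3 were lower (F9, F10 and F13b) and 0 higher. Of the 13477 genes tested, 1714 were lower and 1607 higher at that threshold. Of the 10, DESeq2 called 3 as lower and 0 as higher, and its share over all genes in this comparison is not given here. F10 encodes factor X, the protease on which the initiating and contact arms meet, at chr8:13037308-13056676. Control libraries 1 to 4 had 424, 502, 456 and 453 CPM of F10, and the fenofibrate libraries had 352, 400, 306 and 387 CPM. The groups did not overlap, and HFD, with 426, 386, 400.5 and 422 CPM, overlapped both. F10 fell by 0.34 ± 0.10 on the log2 scale (edgeR adjusted p = 0.0431), to 0.787 of Control (95% interval 0.679 to 0.913).

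The F10 call stood close to the threshold. It was lost when any of Control libraries 2, 3 and 4, any HFD library, or fenofibrate library 1, 3 or 4 was left out, with edgeR adjusted p from 0.052 to 0.149. Without fenofibrate libraries 1 and 3 the log2 fold change was -0.21 (adjusted p = 0.42), and with total counts only it was -0.14 (adjusted p = 0.261). F9 had a log2 fold change of -0.31 ± 0.11 against Control with no overlap (edgeR adjusted p = 0.0774), and F13b had -0.37 ± 0.12 with overlap (adjusted p = 0.0715). Both were called without fenofibrate library 2, at adjusted p = 0.039 for F9 and 0.038 for F13b, and F13b also without Control library 1 (-0.45, adjusted p = 0.0178). Scaling by total counts only gave smaller values, -0.11 for F9 and -0.16 for F13b (adjusted p = 0.439 and 0.256), and leaving out fenofibrate libraries 1 and 3 gave -0.18 and -0.25 (adjusted p = 0.5 and 0.486). In this comparison 2 of the 10 transcripts had no overlap, both lower, beside 13.1% of all genes, and the signs of F2, F5, F7, F12, Proc and Serpinc1 turned with total counts only.

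Because CPM depends on how libraries are scaled, each gene was also expressed as its share of the summed counts of the 10 genes. Scaling does not alter this share, and it rises for a gene as it drops for the others. Serpinc1, at 31.3% to 34.1% over the libraries, and F2, at 27.0% to 30.4%, made up most of the sum. The other shares therefore depend mainly on these genes, and Serpinc1 counts could include reads of Zbtb37. F9 made up 3.32%, 3.48%, 3.43% and 3.04% of the summed counts in HFD libraries 1 to 4. With fenofibrate it made up 2.68%, 2.73%, 2.38% and 2.499%, with no overlap. The share of F13b was 3.66% to 4.50% in HFD and 3.07% to 3.55% with fenofibrate, again apart. F10 made up 6.20% to 7.18% in Control and 5.73% to 6.07% with fenofibrate. F12 took 6.75% to 7.61% in HFD, under both Control (7.70% to 9.68%) and fenofibrate (7.96% to 10.1%). No other gene of the 10 had shares that were apart in any of the 3 comparisons.

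F7 and F10 are neighbours on chromosome 8, 1498 bases apart and on the same strand, and they encode proteases of successive steps. The ratio of F7 counts to F10 counts was 0.239, 0.178, 0.222 and 0.217 in Control libraries 1 to 4, 0.183, 0.193, 0.235 and 0.177 in HFD, and 0.257, 0.246, 0.294 and 0.240 with fenofibrate. Every fenofibrate library was above every HFD and Control library, while HFD and Control overlapped. This pair was chosen after its values were seen, so the ratio is given as a description.

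**Figure D3:**
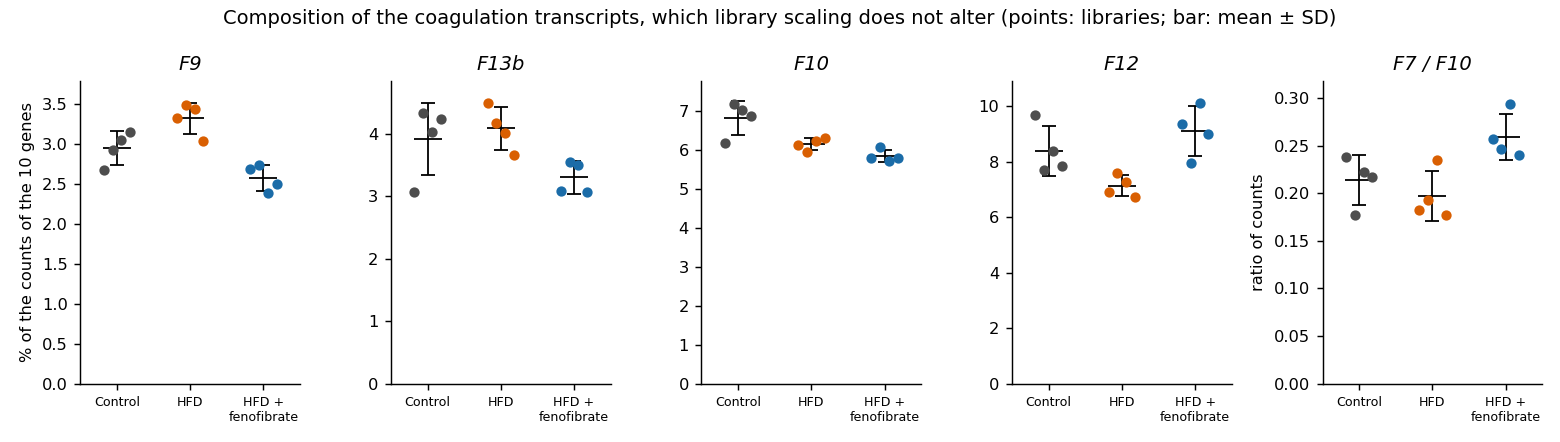
Share of F9, F13b, F10 and F12 in the summed counts of the 10 genes (vertical axes, %, from 0) and the ratio of F7 to F10 counts in each library. Points are libraries 1 to 4 and bars the mean ± SD of 4; F9 lies at 3.04% to 3.48% in HFD and 2.38% to 2.73% with fenofibrate, and F12 is lowest in HFD at 6.75% to 7.61%.

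The genes that work with these proteins were followed in 7 lists. No call made in them against HFD or against Control with fenofibrate stood in edgeR's test when fenofibrate libraries 1 and 3 were left out. Calls over all genes also dropped in that fit, to 55 that rose and 69 that fell against HFD and 215 and 158 against Control. The vitamin K cycle supplies the carboxylation that F2, F7, F9, F10 and Proc need, and 0 of its 3 tested genes passed edgeR's test with TMM scaling in any of the 3 comparisons; at an unadjusted p under 0.05 Ggcx was higher with the diet and against Control, and DESeq2 called 0 in each comparison. With total counts only, Ggcx was called higher against Control (0.52 in place of 0.31, edgeR adjusted p = 0.0463). Ggcx, the carboxylase itself, was at 35.6 CPM in Control, 44.3 in HFD and 44.1 with fenofibrate. Vkorc1l1, a relative of the vitamin K epoxide reductase, was at 47.2 CPM in Control, 42.9 in HFD and 42.1 with fenofibrate. Vkorc1, the gene of the reductase itself, was also listed but did not pass the filter on low counts and was not tested.

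The contact system partners work beside F11 and F12. Klkb1, plasma prekallikrein and the closest relative of F11, rose with the diet from 159 ± 14.8 to 232 ± 29.6 CPM (log2 fold change 0.55 ± 0.12, edgeR adjusted p = 0.00689). It fell with fenofibrate against HFD to 162 ± 20.99 CPM (-0.52 ± 0.12, adjusted p = 0.0122), and the second call was lost without fenofibrate library 3 (-0.45, adjusted p = 0.0541) and without libraries 1 and 3 (-0.38, adjusted p = 0.224). Against HFD, 1 of 4 partners fell and 0 rose, with a median log2 fold change of -0.32 that was -0.16 under total counts only. At an unadjusted p under 0.05, 3 were lower and 0 higher, and DESeq2 called 1 as lower and 0 as higher. Against Control, 2 of 4 fell: Kng1 (-0.67 ± 0.13, adjusted p = 0.00579) and Kng2 (-0.46 ± 0.12, adjusted p = 0.0283), which encode the kininogens on which prekallikrein and factor XI circulate. Their log2 fold changes were -0.51 and -0.35 without fenofibrate libraries 1 and 3 (adjusted p = 0.0972 and 0.248), and the Kng2 call was also lost in 5 of the fits that left out 1 library (Control 2, 3 or 4 or fenofibrate 1 or 3, adjusted p from 0.05 to 0.0943), with total counts only (-0.25, adjusted p = 0.0886) and with the 8 libraries compared (adjusted p = 0.0566).

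Of 8 cofactor, fibrinogen and von Willebrand factor genes tested, 1 fell with fenofibrate against HFD and 0 passed with the diet or against Control, with medians of -0.18, 0.01 and -0.27. At an unadjusted p under 0.05, 3 were lower against HFD, 1 with the diet and 3 against Control; DESeq2 called 3, 1 and 2 as lower. With total counts only, the medians were -0.020 against HFD and -0.053 against Control, and 4 of the 8 were lower in each, in place of 7. The one that fell was Fgg, the gamma chain of fibrinogen, which went from 3484 ± 530 to 2423 ± 319 CPM (log2 fold change -0.52 ± 0.14, edgeR adjusted p = 0.0254). Fga and Fgb, the other chains, had log2 fold changes of -0.37 and -0.36 and did not pass (adjusted p = 0.0681 and 0.0661). The Fgg call was lost without HFD library 1 or 4 or fenofibrate library 1, 3 or 4, with adjusted p from 0.0592 to 0.0831.

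Tissue factor and the vessel wall receptors gave 1 gene that rose with the diet, and 1 that rose and 2 that fell with fenofibrate against HFD, of 6 tested. Tfpi2, an inhibitor of serine proteases, rose with the diet from 40.5 ± 8.65 to 67.3 ± 9.70 CPM (log2 fold change 0.73 ± 0.17, edgeR adjusted p = 0.0101) and fell with fenofibrate to 37.1 ± 7.52 CPM (-0.86 ± 0.17, adjusted p = 0.00542). Tfpi, the inhibitor of factor VIIa and factor Xa, fell from 8.37 ± 1.64 to 5.57 ± 0.470 CPM (-0.59 ± 0.16, adjusted p = 0.0256). Thbd, the receptor with which thrombin activates protein C, rose from 2.5 ± 0.998 to 5.06 ± 1.34 CPM (1.0 ± 0.26, adjusted p = 0.0241). The Thbd call was lost without HFD library 1 or 3 or fenofibrate library 1 or 3, and the Tfpi call without HFD library 2 or 4 or fenofibrate library 1, 3 or 4 and with total counts only (-0.43, adjusted p = 0.0789). HFD library 1, where Thbd was lowest at 1.21 CPM, also had the lowest sums of its group for sinusoidal endothelial markers (159 CPM, against 299 to 325 in the other HFD libraries) and for Kupffer cell and macrophage markers (196 CPM, against 414 to 513); their part in the Thbd result was not tested. None of the 3 calls against HFD stood without fenofibrate libraries 1 and 3 (adjusted p = 0.127, 0.266 and 0.199).

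Among 5 other anticoagulant proteins tested, 1 fell with the diet and 0 passed in the comparisons with fenofibrate, where an unadjusted p under 0.05 was reached by 3 against HFD and 1 against Control and DESeq2 called 2 and 0. Pros1, protein S, the cofactor of activated protein C, fell from 78.1 ± 8.65 to 58.7 ± 3.61 CPM with the diet (log2 fold change -0.41 ± 0.10, edgeR adjusted p = 0.0108), and each of the 22 alternatives kept it. In the fibrinolysis list, Hrg, a plasma protein that binds plasminogen and heparin, fell with the diet from 1032 ± 154 to 679 ± 72.4 CPM (-0.60 ± 0.12, edgeR adjusted p = 0.00385).

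With fenofibrate against HFD, 1 of the 8 fibrinolysis genes rose and 0 fell, with a median of 0.21. At an unadjusted p under 0.05, 2 were higher and 1 lower, and DESeq2 called 2 as higher and 1 as lower. The gene that rose in edgeR's test was Hrg, at 903 ± 68.2 CPM (0.41 ± 0.12, adjusted p = 0.0342). Its call was lost without HFD library 1, 2 or 4 or fenofibrate library 1, 3 or 4, at adjusted p from 0.0661 to 0.1, and with no filter on low counts (0.0552). Against Control, Serpinf2, the inhibitor of plasmin, rose from 705 ± 31.003 to 869 ± 43.4 CPM (0.30 ± 0.09, edgeR adjusted p = 0.0395). It did not pass when any of fenofibrate libraries 1, 3 and 4, Control libraries 2 and 4 or HFD libraries 2 and 4 was left out, with adjusted p from 0.0532 to 0.109, nor with no filter on low counts (0.157) or with the 8 libraries compared (0.0961).

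Hnf4a and Cebpa, which encode hepatocyte transcription factors known at coagulation promoters, did not pass against Control (log2 fold change -0.14 and 0.46, edgeR adjusted p = 0.53 and 0.124). In that comparison 0 of the 8 such factors tested passed, 1 was higher at an unadjusted p under 0.05, and DESeq2 called 0. Cebpa was called higher with total counts only (0.66, adjusted p = 0.0294) and without Control library 1 (0.65, adjusted p = 0.0219), and ran from 0.27 to 0.65 over the fits that left out 1 library.

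**Figure D4:**
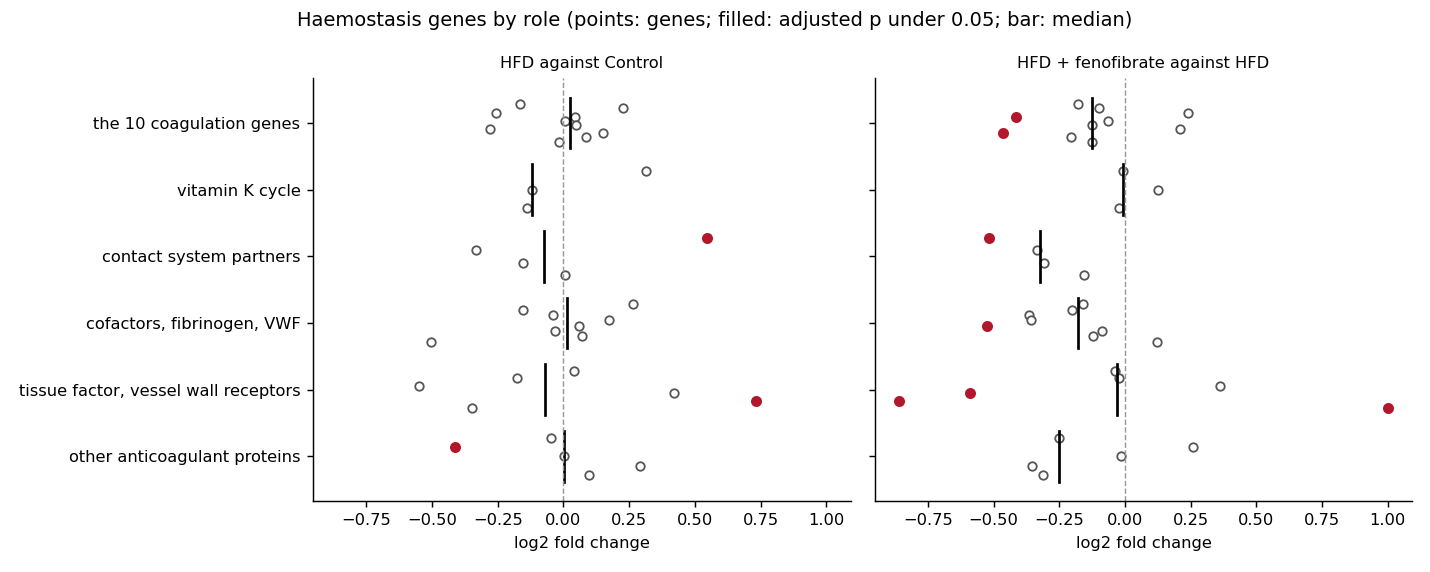
Log2 fold change (horizontal axis) of the 10 coagulation genes and of 5 lists of genes that work with them, in HFD against Control and in HFD + fenofibrate against HFD. Points are tested genes, filled where the edgeR adjusted p is under 0.05, and bars are list medians; the 10 genes have medians of 0.03 and -0.13.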

How the data were processed

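Liver RNA-seq of 12 mice was used, 4 per group. Raw counts per Ensembl gene stand in 2 deposited tables, per the file headers, each with 8 libraries, and the 4 HFD columns are the same in both (0 cells differ). The submitters' processing notes name HISAT2 2.0.5, StringTie 1.3.2d and HTSeq 0.6.0; for strand and annotation release, the sources used here give nothing. The authors' own log2 fold change and adjusted p-value were deposited beside the counts, per the file headers, with no test named. The labels list mm8 and mm9, but 23225 of 25113 identifiers (92.5%) have the same position in the tables as in GENCODE M21, on GRCm38.

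The tables were joined by gene identifier, and a gene in 1 table only was given counts of 0 in the other. Genes passing filterByExpr (13477 of 25164, with 99.87% of the counts) were fitted with edgeR 4.0.16 in R 4.3.3, with TMM scaling and 1 coefficient per group over all 12 libraries; the common biological coefficient of variation was 0.155. A prior count of 0.125 enters the log2 fold changes, and their SE is the size of the change over the root of the F statistic. In 18 pairs of libraries from the same group, the chi-square per gene ranged from 14.6 to 40.9, so no library was a copy of another. The steps were tested on simulated counts.

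The 10 genes, the 7 pathway lists and 10 marker lists were chosen with earlier results of these data known, and the promoter letters after the sequences were seen. All 10 genes are described; of each list, up to 4 genes that passed are named by lowest adjusted p, or the 2 most abundant where none passed, and Fga and Fgb are also named against HFD, beside the third fibrinogen chain. A few genes of the lists are not reported here. For each of the 10 genes that passed, the 3 most alike genes are named. Alternatives were DESeq2 1.42.0, limma-voom (limma 3.58.1), other scalings, other filters, a fit without the 20 most abundant genes, the 8 libraries compared, the replicate block, a threshold of 0.01, each library left out, and fenofibrate libraries 1 and 3 left out. Promoters of 9 of the 10 genes were matched by symbol in RefSeq (GRCm38.p6).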

Additional observations from a re-analysis of the deposited data

Results flagged for a closer look

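F7 in the HFD group had 1 library far from the other 3. HFD library 3 was at 94.1 CPM, and libraries 1, 2 and 4 were at 77.8, 74.6 and 74.6 CPM, so the gap took more of the group's range than Dixon's test allows for 4 samples. It was the 1 case among 30 sets of 4 libraries checked for the 10 transcripts; chance alone flags about 1 in 20 such sets. In the same library F10 was at 400.5 CPM, between the other HFD libraries, and F11 was at 38.7 CPM, the lowest of its group.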

How the results depend on the processing

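Of 660 refits of the 10 transcripts (22 alternatives in each of 3 comparisons), 596 kept direction and side of the threshold, 24 lost a call, 11 gained one and 29 turned sign; of 770 refits of the other named genes, 673, 65, 9 and 23 did. F9 against HFD kept its call in 21 of 22, F13b in 14 and F10 against Control in 7. With total counts only, the log2 fold change against HFD turned to 0.095 for F2, 0.042 for F5, 0.064 for F11, 0.038 for Serpinc1, 0.15 for Vkorc1l1 and 0.16 for Ggcx. Against Control it turned to 0.15 for F2, 0.14 for F7, 0.13 for F5, 0.19 for F12, 0.091 for Proc, 0.063 for Serpinc1, 0.053 for Vkorc1l1, 0.031 for Fgb, 0.081 for Tfpi2 and 0.075 for Hnf4a, and with the diet to 0.025 for Serpinc1 and 0.0036 for Fga. Without fenofibrate libraries 1 and 3 it was 0.064 for F2, 0.048 for F11 and 0.0062 for Serpinc1 against HFD, and 0.080 for F2, 0.0049 for F12 and 0.049 for Tfpi2 against Control. F2r against Control, at 0.0024, was -0.012 with limma-voom and -0.00050 with a minimum mean of 1 CPM. With 1 library left out, signs turned within -0.027 to 0.049 for F2, -0.039 to 0.12 for F13b, -0.054 to 0.019 for Serpinc1 and -0.10 to 0.038 for Fga with the diet, within -0.12 to 0.015 for F2, -0.078 to 0.034 for Vkorc1l1 and -0.10 to 0.051 for Ggcx against HFD, and within -0.11 to 0.030 for F2, -0.058 to 0.084 for F12 and -0.11 to 0.13 for F2r against Control. The cause of these turns was not tested.

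Counts of the 10 transcripts also moved. With the diet, DESeq2 had 1 that fell. Against HFD, 3 fell with DESeq2, and total counts only gave 2 that rose and 1 that fell. In that comparison 0 fell without fenofibrate libraries 1 and 3 or at an adjusted p under 0.01. Against Control, 3 fell with DESeq2, and 0 with total counts only, no filter, the 8 libraries compared, without fenofibrate libraries 1 and 3 or at 0.01. Leaving out 1 library gave 0 to 1 that fell with the diet, 0 to 1 that rose and 1 to 2 that fell against HFD, and 0 to 3 that fell against Control. Over all genes, total counts only gave 523 that fell with the diet, 2059 that rose and 451 that fell against HFD, and 2119 and 298 against Control. Without fenofibrate libraries 1 and 3, where fewer libraries enter the fit, 55 rose and 69 fell against HFD, and 215 and 158 against Control. At 0.01 there were 343 and 360 with the diet, 200 and 262 against HFD, and 235 and 219 against Control. Leaving out 1 library gave 550 to 832 that rose and 554 to 930 that fell with the diet, 282 to 1210 and 328 to 1206 against HFD, and 383 to 858 and 310 to 852 against Control.

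Replicate numbers are shared by the groups, but same-numbered libraries did not deviate together after group means were removed (r from -0.18 to 0.14), so they were not taken as pairs. With the replicate number as a block, 0 of the 10 fell against Control (F10 -0.35, edgeR adjusted p = 0.0585) and 2 fell against HFD; Serpinf2 against Control also lost its call (0.30, adjusted p = 0.0612), and F2r against Control was -0.0070. Over all genes the block gave 805 that rose and 869 that fell against HFD.

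With 4 libraries per group, intervals of the 10 transcripts reached from 0.619 to 1.43 of the reference level. Counts were not the limit, as no transcript had under 534 in any library. Transcript levels do not give plasma protein or clotting activity. The log2 fold changes of F9, F13b and F10 were nearer to 0 without fenofibrate libraries 1 and 3, which hold muscle transcripts. For each of these genes those libraries had the lowest levels of their group, so leaving them out had to move the falls towards 0. The part of the muscle transcripts in these values was not tested.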

Other observations

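The genes whose levels were most alike those of the 3 transcripts that passed in some comparison were looked up by Pearson r of log2 CPM across the 12 libraries, which share the 3 groups and the library scaling. For F9 they were C9, the last component of the membrane attack complex (r = 0.97), Ugt2b36, a glucuronosyltransferase (0.97), and Glyat, a glycine acyltransferase (0.96). F10 was most alike Serpina1d, an alpha-1-antitrypsin (0.97), and the kininogens Kng1 (0.97) and Kng2 (0.94). For F13b they were Ccdc47 (0.98), Zhx1 (0.97) and Mocs2 (0.96). They have the highest r among the tested genes with a symbol outside the 10, and are given as a description.

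The spread of the 10 transcripts within groups, fitted over all 12 libraries, was below the common value of this experiment. Their biological coefficients of variation, edgeR's measure of spread beyond counting error, ran from 0.102 for Proc and 0.106 for F7 to 0.139 for F11, against a common value of 0.155. Of all genes tested, 9.7% had a lower value than Proc and 46.4% a lower value than F11. Genes of like abundance were not compared. The spread also differed between groups. For F2 the SD was 1.702% of the mean in HFD and 12.25% with fenofibrate, and for F7 it was 11.63% and 4.191%. The count ratio of F12 to F9, a pair chosen after its values were seen, ran from 2.08 to 2.22 among HFD libraries, from 2.49 to 3.62 among Control libraries and from 2.91 to 4.25 among fenofibrate libraries, so that HFD lay under both other groups with no overlap.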
